A study of Mus musculus with 6 samples.

Results

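Transcripts of 10 natural killer (NK) receptor genes, the killer lectin-like receptors Klrc1, Klrc2, Klrd1, Klrk1, Klri1, Klri2, Klrb1c, Klre1 and Klrg1 and the natural cytotoxicity receptor Ncr1, were examined in spleen CD4+ T cells sorted with (CD4+Lrig1+) and without (CD4+Lrig1-) surface Lrig1. They are 10 of the 45777 genes in the deposited tables. The genes were chosen by measured values of this same contrast, their counts in CD4+Lrig1+ against CD4+Lrig1- libraries, so the ratios between the groups are a description and carry no test. Both groups were T cells sorted by flow cytometry from females of the inbred C57BL/6 strain, aged 7 weeks, with no treatment or allele given. The labels list 3 samples a group, and 2 libraries a group could be tied to their group, held as 1 library of each group in set 1 and 1 of each in set 2. The study describes its replicates in general as independent, and the sources do not say how many mice gave each library or whether mice were pooled. RNA of a whole sorted population was sequenced, so that fewer cells of a type and less RNA per cell cannot be told apart.

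NK cells carry germline-encoded receptors that inhibit or trigger killing, and many of them lie together in the NK gene complex. Inhibitory chains carry tyrosine motifs that recruit phosphatases, whereas activating chains have short tails and signal through adaptors such as Tyrobp (DAP12), Hcst (DAP10) or Fcer1g. Several lectin-like chains act only as pairs: Klrd1 (CD94) pairs with Klrc1 (NKG2A, inhibitory) or Klrc2 (NKG2C, activating) and binds the MHC class Ib molecule Qa-1, encoded by H2-T23, and Klre1 pairs with Klri1 (inhibitory) or Klri2 (activating). Klrk1 (NKG2D) binds stress-induced ligands, Klrb1c encodes the NK1.1 antigen of C57BL/6 mice, Klrg1 binds cadherins and Ncr1 encodes NKp46. Outside NK cells, these genes are known from NKT, gamma delta T and effector CD8 T cells, and Klrg1 also from a differentiated fraction of regulatory T cells.

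9 of the 10 genes lie on chromosome 6 of GRCm38.p6. From the start of Klrb1c (gene ID 17059) to the end of Klri2 (gene ID 320407), 8 of them lie within 962 kb, chr6:128778485-129740484. Klre1 (gene ID 243655), Klrd1 (16643), Klrk1 (27007), Klrc2 (16642), Klrc1 (16641), Klri1 (503550) and Klri2 follow each other in that order within 181 kb. Klrg1 (50928) lies apart at chr6:122270596-122282833, 6496 kb from Klrb1c, and Ncr1 (17086) lies on chromosome 7 at chr7:4337715-4345184. The start and end of all 10 genes in the deposited tables equal those of RefSeq on GRCm38.p6.

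The promoter windows of 6 of the receptors are shown for their sequence. Whether it bears on the direction of the transcripts was not tested, and Klrg1, with the opposite direction, has no window here. Each is the 250 bases before a RefSeq start, read on the coding strand. A start can be that of 1 of several transcript models, and the windows of Klrc1, Klri1 and Klre1 lie within the span of their gene. Capitals mark the Runx core TGTGGT, or ACCACA where it lies on the opposite strand. Runx factors bind this core and act in NK and T cell development.
Klrc1: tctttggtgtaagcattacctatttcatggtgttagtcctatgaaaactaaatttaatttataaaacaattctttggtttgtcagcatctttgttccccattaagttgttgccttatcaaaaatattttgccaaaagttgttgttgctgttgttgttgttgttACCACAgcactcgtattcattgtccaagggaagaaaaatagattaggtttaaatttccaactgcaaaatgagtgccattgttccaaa
Klrc2: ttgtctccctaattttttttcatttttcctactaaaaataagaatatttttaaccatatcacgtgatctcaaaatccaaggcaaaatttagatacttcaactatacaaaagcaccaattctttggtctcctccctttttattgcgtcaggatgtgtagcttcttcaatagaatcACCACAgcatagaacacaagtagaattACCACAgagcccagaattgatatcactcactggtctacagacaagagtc
Klrk1: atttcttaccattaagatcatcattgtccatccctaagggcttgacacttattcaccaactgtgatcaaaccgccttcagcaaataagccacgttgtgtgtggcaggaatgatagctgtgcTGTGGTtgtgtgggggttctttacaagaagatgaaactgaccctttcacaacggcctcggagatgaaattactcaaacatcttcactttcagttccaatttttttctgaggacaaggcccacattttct
Klrb1c: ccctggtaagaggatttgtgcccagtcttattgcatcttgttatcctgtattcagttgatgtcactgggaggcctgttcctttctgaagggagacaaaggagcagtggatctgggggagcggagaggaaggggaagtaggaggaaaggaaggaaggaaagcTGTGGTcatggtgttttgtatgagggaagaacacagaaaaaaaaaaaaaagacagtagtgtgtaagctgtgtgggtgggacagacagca
Ncr1: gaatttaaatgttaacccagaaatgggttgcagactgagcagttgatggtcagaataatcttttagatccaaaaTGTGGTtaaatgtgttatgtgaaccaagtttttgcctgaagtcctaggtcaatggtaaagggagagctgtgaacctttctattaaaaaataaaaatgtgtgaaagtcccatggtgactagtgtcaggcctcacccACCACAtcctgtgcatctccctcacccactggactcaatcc
Klri1: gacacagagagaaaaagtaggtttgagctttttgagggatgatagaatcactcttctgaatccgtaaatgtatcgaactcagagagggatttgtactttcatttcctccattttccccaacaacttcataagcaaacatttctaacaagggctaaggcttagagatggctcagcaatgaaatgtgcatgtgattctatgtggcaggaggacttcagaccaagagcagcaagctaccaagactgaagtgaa
The windows lie on GRCm38.p6 at chr6:129678974-129679223 (Klrc1), chr6:129660557-129660806 (Klrc2), chr6:129623865-129624114 (Klrk1), chr6:128788642-128788891 (Klrb1c) and chr6:129717133-129717382 (Klri1), all on the minus strand, and at chr7:4337465-4337714 on the plus strand (Ncr1). RefSeq windows were at hand for 7 of the genes, in 10 windows, some of which overlap, and Klrd1, Klri2 and Klrg1 have none here. The Runx core was found on either strand in 8 of the 10 windows, against 14.0% of all 32851 promoter windows of this length. At least 1 window of 6 of the 7 genes held it. Klrc2, Klre1 and Ncr1 have more than 1 window, and a share per gene over all genes was not computed. The window of Klri1 and the Klre1 window at chr6:129578036-129578285 did not. A core in overlapping windows of a gene is counted in each. The T-box core GGTGTGA was in none of the 10 windows, so that it overlapped no Runx core, against 3.33% of all windows. The Ets core AGGAAG was in 2 of the 10 windows, that of Klrb1c and 1 of Klre1, against 29.5% of all windows. A match describes the letters of the window and is not a binding site.

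The libraries held 44865070 to 59977951 estimated counts. Lrig1 was 75.3 and 36.7 TMM-normalized CPM (counts scaled to the effective size of the library) in the CD4+Lrig1- libraries of set 1 and set 2 and 221 and 129 CPM in the CD4+Lrig1+ libraries, so the labels hold in both sets. Foxp3, the transcription factor of regulatory T cells, was 48.9 and 30.7 CPM against 588 and 615 CPM. Cd4 lay between 924 and 1100 CPM in all 4 libraries. All 10 receptor genes passed the filter on low counts, among 16123 genes. With edgeR's quasi-likelihood test without a term for the set, 0% of these genes (0 of 16123) were called between the groups at an adjusted p under 0.05, with 674 genes higher and 227 lower at an unadjusted p under 0.05. The counts of genes called higher and lower were 263 and 50 by the Wald test of DESeq2 and 179 and 14 by the exact test of edgeR. With the set as a term in the quasi-likelihood test, so that libraries were compared within their table, 2358 genes were called higher (14.6%) and 2056 lower (12.8%), from 1 residual degree of freedom. For a single gene, the smallest p that an exact permutation test over 2 and 2 libraries allows is 0.333.

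9 of the 10 receptors had lower levels in CD4+Lrig1+ than in CD4+Lrig1- T cells, in set 1 and in set 2 alike, and Klrg1 had higher levels in both. Over all genes tested, 41.3% were lower and 35.9% higher in both sets. The libraries of the groups did not overlap for 8 of the lower receptors and for Klrg1, whereas those of Ncr1 did. Over all genes, both CD4+Lrig1+ libraries lay below both CD4+Lrig1- libraries for 11.8% and above them for 14.3%. The median log2 ratio of CPM (CD4+Lrig1+ over CD4+Lrig1-) of the 10 receptors was -2.48 in set 1 and -2.08 in set 2, beside 0.01 and -0.06 for all genes tested. Summed, all 10 receptors had 73.2 and 134 CPM in the CD4+Lrig1- libraries and 25.2 and 54.1 CPM in the CD4+Lrig1+ libraries. Without Klrg1, the sums were 68.2 and 122 CPM in the CD4+Lrig1- libraries and 13.1 and 29.0 CPM in the CD4+Lrig1+ libraries.

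**Figure D1:**
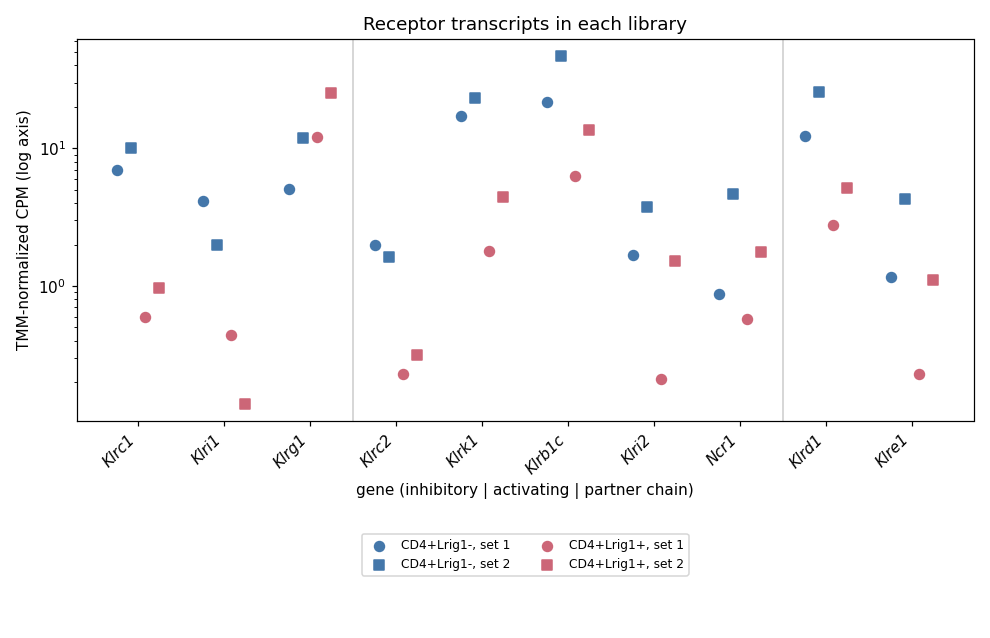
TMM-normalized CPM (log axis) of the 10 receptor genes in each of the 4 libraries, with CD4+Lrig1- in blue, CD4+Lrig1+ in red, set 1 as circles and set 2 as squares, and with inhibitory receptors, activating receptors and partner chains separated by grey lines. The red points lie below the blue points except for Klrg1, where they lie above, and Ncr1, where the set 2 red point (1.76) lies above the set 1 blue point (0.877).

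Of the inhibitory receptors, Klrc1 and Klri1 had the lowest mean log2 ratios of the 10 genes. Klrc1 was the lower in set 1 and Klri1 in set 2, and their order by the mean turns with a prior count of 0.5 (-3.45 for Klrc1 and -3.47 for Klri1). Klrc1 was 6.99 and 10.1 CPM in the CD4+Lrig1- libraries of set 1 and set 2 and 0.596 and 0.975 CPM in the CD4+Lrig1+ libraries. The groups lay far apart, and CD4+Lrig1- libraries were higher by 11.7-fold in set 1 (95% interval 8.11 to 17.6) and 10.4-fold in set 2 (7.88 to 13.9). These are exact intervals of the ratio of 2 counts in 1 set, and they cover counting error only. They may be too narrow even for that, since the counts are estimates and reads without molecular identifiers are not independent molecules. The mean log2 ratio of Klrc1 was -3.40 ± 0.10 (SD, n = 2 sets).

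Klri1, the inhibitory partner of Klre1, was 4.15 and 1.98 CPM in the CD4+Lrig1- libraries and 0.442 and 0.139 CPM in the CD4+Lrig1+ libraries. The latter rest on 23 and 8 estimated counts. The groups did not overlap, and within each group set 1 was the higher. The CD4+Lrig1- libraries were higher by 9.40-fold (6.09 to 15.2) and 14.2-fold (6.96 to 33.8), with intervals that overlap.

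Klrg1 was the only receptor of the 10 with the opposite direction. It was 5.05 and 11.9 CPM in the CD4+Lrig1- libraries and 12.1 and 25.1 CPM in the CD4+Lrig1+ libraries. The groups were separated by a narrow margin, that of CD4+Lrig1- in set 2 to CD4+Lrig1+ in set 1. Within a set the CD4+Lrig1+ library was higher by 2.39-fold in set 1 (2.05 to 2.78) and 2.1-fold in set 2 (1.92 to 2.31). Means were 18.6 ± 9.22 CPM in CD4+Lrig1+ and 8.49 ± 4.86 CPM in CD4+Lrig1- T cells (SD, n = 2), so the spread between the sets was about as large as the distance of the means.

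Among the activating receptors, Klrk1 was 17.2 and 23 CPM in the CD4+Lrig1- libraries and 1.79 and 4.42 CPM in the CD4+Lrig1+ libraries. Its groups did not overlap. The CD4+Lrig1- libraries were higher by 9.65-fold in set 1 (7.78 to 12.1) and 5.21-fold in set 2 (4.55 to 5.98), and these counting intervals do not overlap. Whether a ratio differed between the sets could not be tested, since each set has 1 library of each group.

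Klrb1c was 21.9 and 46.6 CPM in the CD4+Lrig1- libraries and 6.29 and 13.6 CPM in the CD4+Lrig1+ libraries. Set 2 was the higher in both groups, and the ratio was nearly the same in each set, 3.48-fold (3.07 to 3.95) and 3.43-fold (3.17 to 3.72) higher in CD4+Lrig1-. Of the 50-base stretches of the Klrb1c transcripts, as long as a read, 17.0% also occur in transcripts of other genes, mostly of the predicted gene Gm44511, so that some of its reads could be placed elsewhere.

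Klrc2, the activating counterpart of Klrc1, was 1.98 and 1.63 CPM in the CD4+Lrig1- libraries and 0.231 and 0.313 CPM in the CD4+Lrig1+ libraries, the latter from 12 and 18 estimated counts. The groups did not overlap, with 8.60-fold (4.70 to 17.2) and 5.20-fold (3.11 to 9.18) higher levels in CD4+Lrig1-. Klrc1 and Klrc2 are close copies: 38.6% of the 50-base stretches of Klrc1 and 29.4% of those of Klrc2 occur in another gene, mostly in each other. How their reads were divided is therefore uncertain, and both directions were the same.

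Klri2, the activating partner of Klre1, was 1.69 and 3.76 CPM in the CD4+Lrig1- libraries and 0.211 and 1.51 CPM in the CD4+Lrig1+ libraries. The CD4+Lrig1+ library of set 2 came close to the CD4+Lrig1- library of set 1. The ratio was the most uneven of the 10 genes, 8.0-fold (4.24 to 16.7) in set 1 and 2.48-fold (1.92 to 3.23) in set 2, with a mean log2 ratio of -2.04 ± 1.06 (SD, n = 2 sets). Klri1 and Klri2 share few 50-base stretches, 5.83% of those of Klri1.

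Ncr1 was 0.877 and 4.65 CPM in the CD4+Lrig1- libraries and 0.577 and 1.76 CPM in the CD4+Lrig1+ libraries. The libraries of the groups overlapped. In set 1, with 42 against 30 estimated counts, the CD4+Lrig1- library was 1.52-fold higher (0.929 to 2.52), and in set 2 it was 2.64-fold higher (2.09 to 3.36). The counting interval of set 1 includes 1.

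Of the partner chains, Klrd1 was 12.2 and 25.6 CPM in the CD4+Lrig1- libraries and 2.77 and 5.17 CPM in the CD4+Lrig1+ libraries. The groups did not overlap, and the CD4+Lrig1- libraries were 4.40-fold (3.66 to 5.32) and 4.96-fold (4.37 to 5.64) higher. Klre1 was 1.17 and 4.31 CPM against 0.231 and 1.11 CPM, so that the CD4+Lrig1+ library of set 2 lay just below the CD4+Lrig1- library of set 1. Its ratios were 5.07-fold (2.69 to 10.4) and 3.87-fold (2.92 to 5.19).

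**Figure D2:**
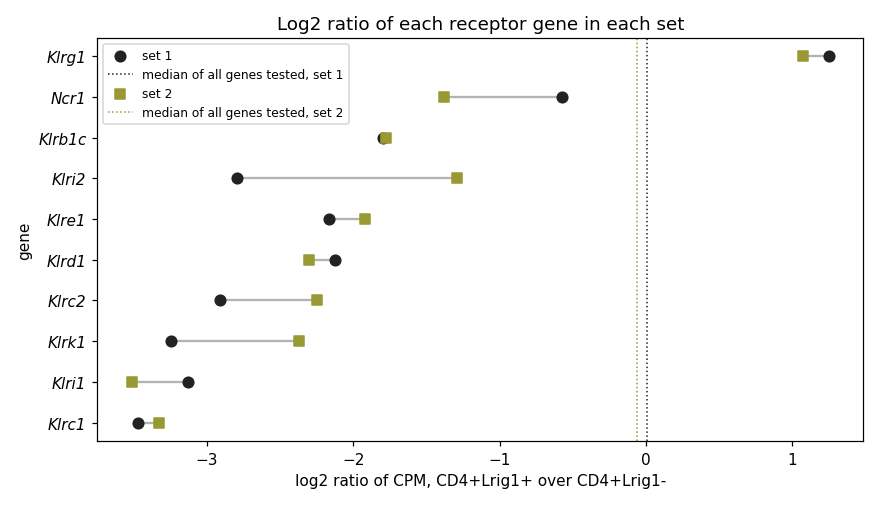
Log2 ratio of CPM, CD4+Lrig1+ over CD4+Lrig1-, of each receptor gene (rows) in set 1 (circles) and set 2 (squares), with dotted lines at the median of all genes tested in each set (0.01 and -0.06). Klrg1 lies at 1.25 and 1.07, Ncr1 at -0.57 and -1.38, and the other 8 genes between -1.29 and -3.51.

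The ratio plot shows that the order of the receptors was not the same in the sets. The inhibitory Klrc1 and Klri1 had mean log2 ratios of -3.40 and -3.32, and their partner chains Klrd1 and Klre1 had -2.21 and -2.04. The neighbours in this order, Klrd1, Klre1 and Klri2, differ by less than the SD of Klri2 between the sets.

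Per transcript length, in fragments per kilobase of transcript scaled to library depth (FPKM), Klrd1 was the most abundant of the 10 receptors in CD4+Lrig1- T cells, at 12.6 and 21.9 FPKM, followed by Klrb1c at 7.99 and 15.0 FPKM. In CD4+Lrig1+ T cells Klrg1 was the most abundant in both libraries, at 8.48 and 16.6 FPKM. There Klrd1 (2.66 and 4.45 FPKM) and Klrb1c (2.3 and 4.67 FPKM) held the next places, and their order differed between the sets. Klrg1 was thus at 0.282 and 0.336 times the FPKM of Klrd1 in CD4+Lrig1- and at 3.19 and 3.73 times in CD4+Lrig1+ libraries.

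Klrd1 exceeded its partner Klrc1 by 3.68 and 5.07 times in FPKM in the CD4+Lrig1- libraries and by 9.37 and 10.2 times in the CD4+Lrig1+ libraries. Klri1 was at 4.6 and 3.71 times the FPKM of Klri2 in the CD4+Lrig1- and CD4+Lrig1+ libraries of set 1, but at 0.980 and 0.168 times in those of set 2. The order of this inhibitory and activating pair thus differed between the sets. Below 1 FPKM were 3 and 2 of the 10 receptors in the CD4+Lrig1- libraries of set 1 and set 2, and 7 and 5 in the CD4+Lrig1+ libraries.

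**Figure D3:**
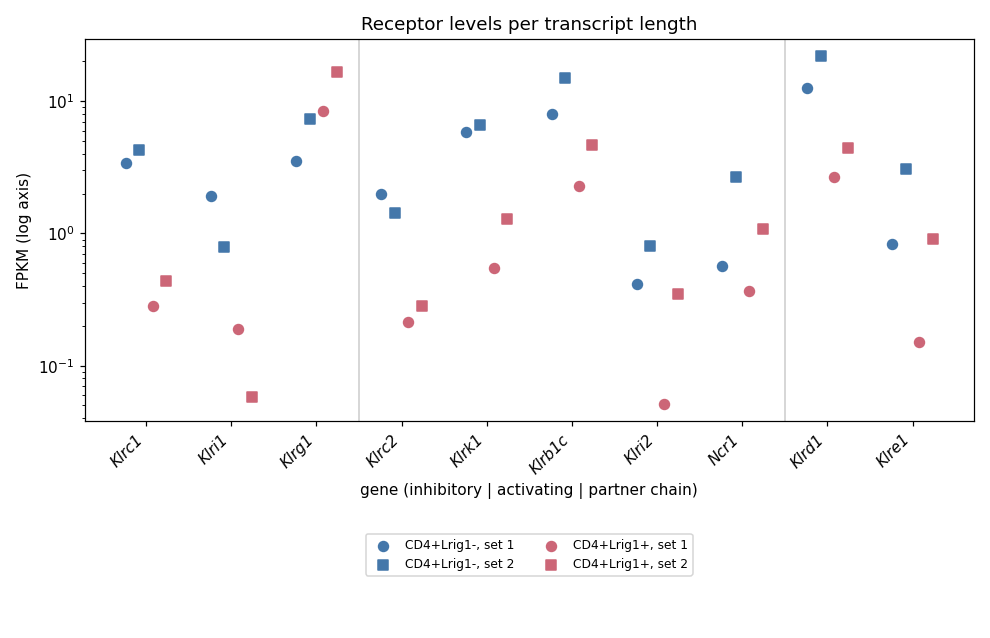
FPKM (log axis) of the 10 receptor genes in the 4 libraries, with colours and symbols for group and set as in the plot of CPM. Klrd1 is highest in the CD4+Lrig1- libraries (12.6 and 21.9) and Klrg1 in the CD4+Lrig1+ libraries (8.48 and 16.6).

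A difference that was not used to choose the receptors is that between the sets. With the group and the set as terms of edgeR's quasi-likelihood test, 8 of the 10 receptors were higher in set 2 than in set 1 and 1 was lower, at an adjusted p under 0.05 over all genes, against 32.1% of all genes higher and 34.5% lower. Ncr1 and Klre1 had the largest log2 differences (set 2 over set 1), 2.03 ± 0.34 (SE, adjusted p = 0.00125) and 2.03 ± 0.33 (adjusted p = 0.00119), followed by Klri2 with 1.81 ± 0.44 (adjusted p = 0.00809). Klri1 was lower in set 2, by -1.26 ± 0.36 (adjusted p = 0.0159), a call that DESeq2's Wald test did not make (adjusted p = 0.0523). Klrc2 was not called, at -0.01 ± 0.45 (adjusted p = 0.986). The set cannot be told apart from any other difference between the tables.

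The remaining receptors were also higher in set 2, Klrg1 by 1.14 ± 0.12 (adjusted p = 9.24e-05), Klrb1c by 1.10 ± 0.10 (adjusted p = 4.32e-05), Klrd1 by 1.00 ± 0.13 (adjusted p = 0.000282), Klrk1 by 0.77 ± 0.20 (adjusted p = 0.0115) and Klrc1 by 0.60 ± 0.20 (adjusted p = 0.0324) on the log2 scale. The Klrc1 call was not made by DESeq2 (adjusted p = 0.158). Without any 1 of the 4 libraries, and with no term for the group, no gene, receptors included, was called between the sets, with 2239 to 2898 genes higher and 2680 to 3751 lower at an unadjusted p under 0.05.

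Between Klrb1c and Klri2, 17 further genes were tested. The 3 Klr genes among them, Klrb1b, Klrb1f and Klrc3, were lower in CD4+Lrig1+ in both sets, with a median mean log2 ratio of -2.21. Of the 14 genes of other families, 8 were lower and 6 higher in both sets, with a median of -0.09. Clec2i and Clec2d, which encode lectin-like ligands of Klrb1 family receptors and lie among them, had log2 ratios of -0.01 and -0.08 and of 0.26 and 0.06. Cd69, an activation marker, and Gabarapl1, an autophagy gene next to Klre1, are named here after their values were seen. Cd69 was at -0.17 and -0.09, and Gabarapl1 at 2.49 and 2.34, with 2.61 and 4.85 CPM in CD4+Lrig1- and 14.9 and 24.8 CPM in CD4+Lrig1+ libraries.

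**Figure D4:**
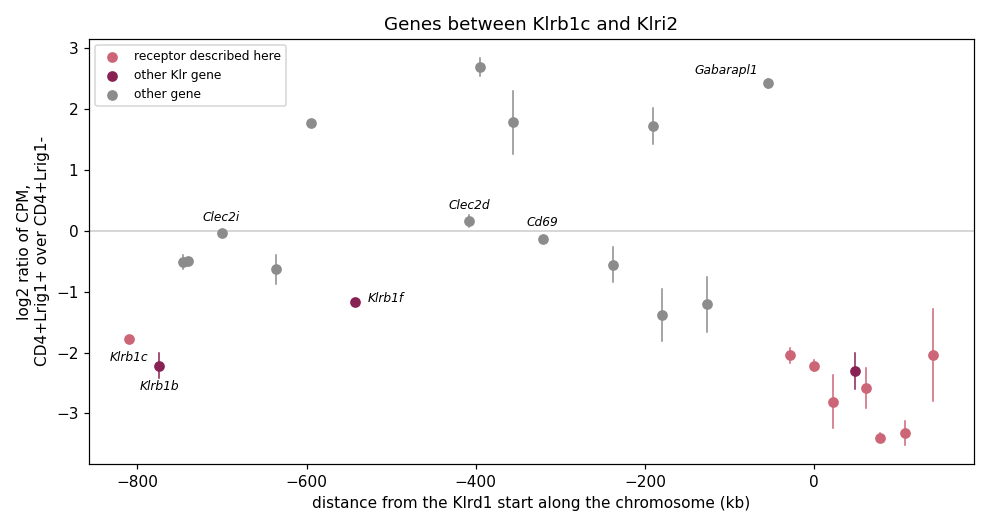
Mean log2 ratio of CPM, CD4+Lrig1+ over CD4+Lrig1-, of the tested genes between Klrb1c and Klri2, against the distance of their start from that of Klrd1 in kb, with vertical lines joining the values of the 2 sets. The receptors described here and the other Klr genes lie between -1.17 and -3.40, whereas the 14 genes of other families lie on both sides of 0.

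Calls for the related genes below come from the fit with the set as a term, read against the 14.6% of all genes called higher and 12.8% called lower. Without that term 0 genes of any list were called. The lists were chosen with earlier results of these data known, so their calls are no independent test. Of the 14 Ly49 receptor genes (Klra family, MHC class I receptors of the same complex), 10 were tested, 6 were called lower and 0 higher, and 8 were lower in both sets, with a median mean log2 ratio of -1.23 beside -0.03 for all genes. Klra1 was 0.710 and 3.09 CPM in the CD4+Lrig1- libraries and 0.154 and 0.487 CPM in the CD4+Lrig1+ libraries (log2 fold change -2.48 ± 0.42, adjusted p = 0.00514). Klra4, Klra8, Klra9 and Klra17 were called lower at log2 fold changes from -1.26 to -2.98. Klra3, also called lower, was 0.564 and 2.0 CPM against 0 and 0.331 CPM. The family consists of close copies, so the division of reads among its genes is uncertain.

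Of the 7 other Klr genes in the tables, 4 were tested and 3 called lower. Klrb1b, an inhibitory receptor of Clec2d, was 1.19 and 3.91 CPM against 0.269 and 0.696 CPM (log2 fold change -2.34 ± 0.35, adjusted p = 0.00300). Klrb1f, whose ligand is a Clec2 lectin, was 5.91 and 4.52 CPM against 2.65 and 1.95 CPM (-1.18 ± 0.21, adjusted p = 0.00576), and Klrc3 had -2.44 ± 0.50 (adjusted p = 0.0115). The values of these genes did not overlap between the groups.

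Of 15 receptor ligand genes, 7 were tested and 1, Cdh1, was called lower. Cdh1 encodes E-cadherin, a ligand of Klrg1, and was 1.32 and 2.83 CPM in the CD4+Lrig1- and 0.577 and 0.487 CPM in the CD4+Lrig1+ libraries (log2 fold change -1.88 ± 0.44, adjusted p = 0.0190). H2-T23, which encodes the ligand of the Klrd1 heterodimers, was abundant in all libraries, at 284 and 462 CPM against 324 and 529 CPM, and was not called (adjusted p = 0.128). H2-K1 and H2-D1, the classical MHC class I genes that Ly49 receptors bind, were not called either (adjusted p = 0.249 and 0.388).

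Among 16 adaptor and signalling genes, 15 were tested, 4 were called higher and 4 lower. Tyrobp, the adaptor of activating receptors, was 6.14 and 28.9 CPM in the CD4+Lrig1- and 1.36 and 16.1 CPM in the CD4+Lrig1+ libraries (log2 fold change -1.34 ± 0.27, adjusted p = 0.00953), and the groups overlapped because set 2 was higher in both. Syk (-0.96 ± 0.11, adjusted p = 0.000819) and Plcg2 (-1.15 ± 0.11, adjusted p = 0.000390), a kinase and a phospholipase used by NK cells and B cells, were also called lower. The T cell kinase Zap70 was higher, at 346 and 358 CPM against 246 and 246 CPM (0.52 ± 0.08, adjusted p = 0.00341), as were Ptpn11, a phosphatase recruited by inhibitory receptors (0.78 ± 0.07), Sh2d1a, the adaptor of SLAM receptors (0.85 ± 0.08), and Lcp2 (0.38 ± 0.08). Ptpn6, another phosphatase of the list, was not called (adjusted p = 0.147).

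Of 18 immunoglobulin-family NK receptors, 17 were tested, and 4 were called higher and 3 lower. The inhibitory receptors Lag3 and Tigit, shared by NK and T cells, were higher: Lag3 was 6.28 and 15.6 CPM in the CD4+Lrig1- and 47.5 and 121 CPM in the CD4+Lrig1+ libraries (log2 fold change 2.94 ± 0.09, adjusted p = 4.80e-06), and Tigit had 2.91 ± 0.12 (adjusted p = 1.28e-05). Slamf6 (0.83 ± 0.09) and Cd96 (0.34 ± 0.08) were higher as well. Cd244a, the 2B4 receptor, was lower, at 3.97 and 3.50 CPM against 1.08 and 1.15 CPM (-1.74 ± 0.27, adjusted p = 0.00371), and so was the collagen receptor Lair1 (-1.61 ± 0.13, adjusted p = 0.000188). The direction thus differed among receptors of this list, as it did between Klrg1 and the other lectin-like receptors.

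Of the 14 NK and effector transcription factor genes, all tested, 5 were called higher and 3 lower. Eomes, a T-box factor of NK cells and memory CD8 T cells, was 4.20 and 9.18 CPM in the CD4+Lrig1- and 24.1 and 41.3 CPM in the CD4+Lrig1+ libraries (log2 fold change 2.33 ± 0.12, adjusted p = 2.98e-05). Nfil3, required for NK cell development, had 2.90 ± 0.12 (adjusted p = 1.28e-05), Zbtb32 had 2.77 ± 0.19 and Tox 1.14 ± 0.07. Id2, which NK cells and effector T cells need, was lower, at 126 and 154 CPM against 64.7 and 73.3 CPM (-1.02 ± 0.07, adjusted p = 0.000108), and Runx3, a factor of the Runx family, was 124 and 89.6 CPM against 78.1 and 49.6 CPM (-0.76 ± 0.08, adjusted p = 0.000502). Tbx21, a T-box factor like Eomes, was lower as well, at 21.4 and 27.1 CPM against 14.0 and 18.4 CPM (-0.59 ± 0.10, adjusted p = 0.00423).

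All 20 cytotoxic effector genes were tested, and 13 were called lower and 5 higher, with a median mean log2 ratio of -0.67. Perforin (Prf1) was 34.5 and 69.3 CPM in the CD4+Lrig1- and 9.92 and 15.0 CPM in the CD4+Lrig1+ libraries (log2 fold change -2.01 ± 0.12, adjusted p = 4.85e-05). The chemokine Ccl5 (-2.03 ± 0.09, adjusted p = 1.92e-05) and the IL-12 receptor chain Il12rb2 (-2.57 ± 0.19, adjusted p = 0.000138) were lower too. Il2rb, the IL-2 and IL-15 receptor chain that NK cells and regulatory T cells both use, was 287 and 246 CPM against 1030 and 1060 CPM (1.98 ± 0.11, adjusted p = 3.39e-05), and the chemokine receptor Cxcr3 (0.87 ± 0.07) and the granule proteoglycan Srgn (0.95 ± 0.09) were higher. Gzmk was called higher too (0.82 ± 0.20, adjusted p = 0.0217). So was Ifng, named after its values were seen, at 6.70 and 4.79 CPM against 8.32 and 12.5 CPM (0.85 ± 0.24, adjusted p = 0.0391).

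The genes whose profile over the 4 libraries lay nearest to that of the receptors, by the Euclidean distance of centred log2 CPM to the median profile of the receptors, were Ccl5 (distance 0.0989), Cxcr6 (0.264), Ncald (0.299), Prf1 (0.313) and Alox5ap (0.406). Ccl5 was 40.7 and 89.1 CPM in the CD4+Lrig1- and 10.8 and 20.5 CPM in the CD4+Lrig1+ libraries. Cxcr6, a chemokine receptor of NKT and effector T cells, was 47.0 and 110 CPM against 11.6 and 20.0 CPM.

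Markers of other cell types that carry these receptors moved with them in part, and their part in the results was not tested. Of 20 NK cell markers that are not among the 10 receptors (16 of them also in another list), 19 were tested, 11 called lower and 1, Eomes, higher, and 16 were lower in both sets. Their median log2 ratio was -1.24 in set 1 and -1.32 in set 2, beside 0.01 and -0.06 for all genes. Their summed level was 111 and 259 CPM in the CD4+Lrig1- and 97.2 and 175 CPM in the CD4+Lrig1+ libraries, and no marker was at 0 in every library. In the CD4+Lrig1+ libraries most of this sum was Irf8 (25.5 and 61.8 CPM against 43.3 and 56.9 CPM) and Eomes, which are not restricted to NK cells. S1pr5 (-2.50 ± 0.38, adjusted p = 0.00315), Gzma (-1.43 ± 0.15, adjusted p = 0.000508) and Adamts14 (-2.11 ± 0.18, adjusted p = 0.000211) were among those lower. S1pr5, Gzma and Prf1, which was also called lower, are in the list of cytotoxic effector genes as well. The 7 markers not called included Itga2 (-0.11 ± 0.15, adjusted p = 0.633), Fcgr3 (-0.14 ± 0.19, adjusted p = 0.650) and Klrb1a (-0.64 ± 0.81, adjusted p = 0.614).

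Of 8 NKT cell markers, 4 were called lower and 3 higher. Zbtb16, the PLZF factor that directs NKT cell development, was 23.2 and 4.52 CPM in the CD4+Lrig1- and 5.82 and 1.31 CPM in the CD4+Lrig1+ libraries (log2 fold change -1.91 ± 0.15, adjusted p = 0.000152). Trav11, the variable gene of the invariant NKT cell receptor, was 4.26 and 5.61 CPM against 1.25 and 0.992 CPM (-2.13 ± 0.28, adjusted p = 0.00157). Traj18, the joining gene of the same receptor, named after its values were seen, was 0.647 and 1.20 CPM against 0.999 and 0.505 CPM, with opposite directions in the sets, and was not called (adjusted p = 0.727). Ly6c2 (-1.58 ± 0.12, adjusted p = 0.000146) and Tbx21 (-0.59 ± 0.10, adjusted p = 0.00423) were called lower as well. Neither these nor the 3 higher genes, Slamf1, Slamf6 and Il2rb, are restricted to NKT cells. The 3 higher genes raised the list's sum to 1359 and 1454 CPM in CD4+Lrig1+ from 529 and 531 CPM in CD4+Lrig1- libraries.

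Of 10 gamma delta T cell markers, 8 were tested and 5 called lower, with sums of 34.0 and 69.4 CPM in the CD4+Lrig1- and 17.1 and 33.9 CPM in the CD4+Lrig1+ libraries. Trdc, the constant gene of the delta chain, was 8.75 and 18.9 CPM against 4.50 and 9.49 CPM (-0.98 ± 0.12, adjusted p = 0.00125), and Tcrg-C2 was 5.20 and 6.22 CPM against 1.04 and 1.57 CPM (-2.15 ± 0.23, adjusted p = 0.000633). Of 7 CD8 T cell markers, 4 were called lower and 2 higher, with sums of 89.5 and 270 CPM against 73.9 and 174 CPM. Cd8b1 was 16.0 and 66.7 CPM against 11 and 37.3 CPM (-0.70 ± 0.10, adjusted p = 0.00278). The 2 called higher were Eomes (2.33 ± 0.12, adjusted p = 2.98e-05) and Gzmk (0.82 ± 0.20, adjusted p = 0.0217).

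The 10 B cell markers, of which 2 were called lower, differed mostly between the sets. Their sum was 67.6 and 70.8 CPM in the CD4+Lrig1- and CD4+Lrig1+ libraries of set 1, and 761 and 375 CPM in those of set 2. The 10 myeloid and dendritic cell markers summed to 56.9 and 40.8 CPM in set 1 and 191 and 160 CPM in set 2, with 3 called lower, Itgam, Flt3 and Siglech, and 1, Csf1r, higher. The defining T cell genes were as high in both groups: of 9 CD4 T cell markers, 1 was called higher (Cd5, 0.39 ± 0.09) and 1 lower (Trat1, -0.65 ± 0.07), and their sum was 4070 and 5973 CPM in the CD4+Lrig1- and 4355 and 6169 CPM in the CD4+Lrig1+ libraries.

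**Figure D5:**
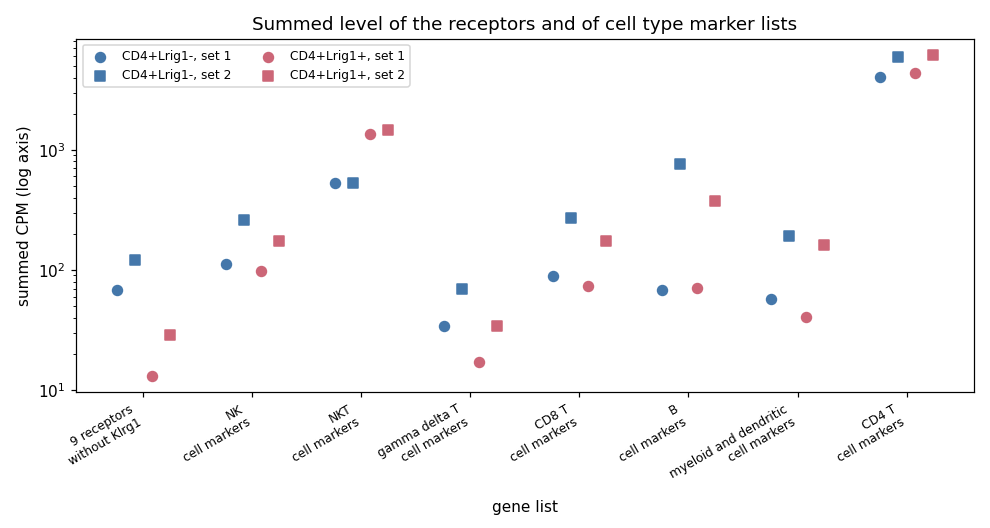
Summed TMM-normalized CPM (log axis) of the receptors without Klrg1 and of each cell type marker list in the 4 libraries, with colours and symbols for group and set as in the plot of CPM. Klrg1, the receptor with the opposite direction, is left out, whereas no gene was left out of the marker lists for its direction. The receptors lie at 68.2 and 122 CPM in CD4+Lrig1- and 13.1 and 29.0 CPM in CD4+Lrig1+, and the NK cell markers at 111 and 259 against 97.2 and 175 CPM, a sum that includes Irf8 and Eomes, whereas the median log2 ratio of that list was -1.24 in set 1 and -1.32 in set 2.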

How the data were processed

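RNA of CD4+Lrig1+ and CD4+Lrig1- T cells from spleen was sequenced by the authors as paired-end reads from a stranded mRNA kit. Per their methods and the submitters' processing notes, the reads were trimmed with Trimmomatic 0.38, mapped to GRCm38 (mm10) with HISAT2 2.1.0 (Bowtie2 2.3.4.1 is also listed) and assembled with StringTie 2.1.3b. The deposited estimated counts, per transcript and library, were made by the authors and are not normalized. The deposited FPKM values were scaled by the authors by transcript length and mapped fragments. 6 columns of per-sample values do not name their group and were not used here, so 4 libraries of 44865070 to 59977951 estimated counts entered a design written for 6 samples. The study describes its replicates in general as independent experiments or samples, but the sources do not say which mice gave these libraries, and p-values measure only the spread between them.

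Whole-number estimated counts were summed per gene over 129299 transcripts. In R 4.3.3, genes passing filterByExpr of edgeR 4.0.16 were normalized by TMM and tested with its quasi-likelihood test (p adjusted by Benjamini and Hochberg's method, called under 0.05), with the group alone (the main test), or with the group and the table that holds a library (the set). For log2 ratios in each set, 2 counts were added as a prior. Alternatives were DESeq2 1.42.0, edgeR's exact test, limma 3.58.1 on FPKM with a pseudocount of 1 or 0.1 (log2), other scalings and filters, and leaving out each library. Exact 95% intervals of a ratio condition on the sum of 2 counts. The procedure was tested on simulated data, where recovery of known changes among the calls was required only of the fit with the set as a term. Sequences and motif counts (Python 3.11.15) are from RefSeq on GRCm38.p6.

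The receptors and gene lists were chosen with earlier results of these data known. Named by rule were the receptors, Lrig1, Foxp3 and Cd4, from each list the 5 genes with the highest mean count and up to 6 of those called by smallest p with the set as a term, and the 5 genes nearest to the receptors' profile among those with a mean count of at least 50. Not all genes the rule allows are printed. Klrh1 and Zfp683 were not analysed here.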

Additional observations from a re-analysis of the deposited data

How the results depend on the processing

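The direction of each receptor's mean ratio held under all 110 alternatives run. These were 5 scalings or pseudocounts, each set alone and each library left out, where the ratio rests on the other set. The values with a library left out thus repeat those of a set alone. The receptors were chosen on this contrast, so the count describes the processing and is no support for the direction. In 14 of the 50 values under another scaling or pseudocount, the ratio moved by more than the SD between the sets, mostly towards 0 with log2(FPKM + 1), which compresses low genes. The receptors' median log2 ratio was -2.13, against -1.06 with log2(FPKM + 1), -2.48 within set 1 alone and -2.48 to -2.08 with 1 library left out. The quasi-likelihood test called 0 genes between the groups. With the set as a term it called 2358 higher and 2056 lower, DESeq2's Wald test 263 and 50, edgeR's exact test 179 and 14, and with 1 library left out 1 to 88 higher (set 1: 88 without CD4+Lrig1-, 5 without CD4+Lrig1+; set 2: 1 and 41) and 0 to 2 lower, where the lone library of a group is assumed to vary like the other group. Of the 87 listed pathway genes tested, 0 were called, against 18 higher and 33 lower with the set as a term and 6 and 2 with DESeq2. Between the sets, DESeq2 called 0 receptors lower against 1, and with any 1 library left out 0 to 0 genes and 0 to 0 receptors were called in either direction, where the term for the group is dropped. The cause of these changes was not tested. None of the lists' median log2 ratios changed sign under DESeq2's size factors or log2(FPKM + 1). No paired analysis was possible because the columns carry no replicate numbers, other than the fit with the set as a term, which pairs the libraries by table. With 2 libraries a group, receptors under 30 estimated counts in a library (Klrc2, Klri1, Klri2 and Klre1) have the widest intervals.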

Other observations

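The tables divide the counts of most receptors among several transcript models, and the division was uneven between libraries. Klrd1 has 3 models, of which the 867-base model took 76.5% and 56.6% of its estimated counts in the CD4+Lrig1- libraries of set 1 and set 2 and 57.6% and 40.4% in the CD4+Lrig1+ libraries. For Klrc1, the 1984-base model took 54.0% and 83.2% in CD4+Lrig1- and 64.5% and 96.4% in CD4+Lrig1+ libraries, and 3 of its 6 models had counts. For Klrb1c, the 2632-base model took 70.9% and 73.6% against 55.0% and 76.3%. Klre1 has 10 models, 9 with counts, and in the CD4+Lrig1+ library of set 1 all 12 of its estimated counts fell on the 1414-base model listed as a non-coding RNA, which took 3.12% in the CD4+Lrig1+ library of set 2. Klrg1 and Klri2 have 1 model each. These shares are estimates from models that overlap, and were not tested between the groups.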
